A study of Homo sapiens with 24 samples.

Results

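Insulin-like growth factors (IGFs) and insulin signal through the related receptor kinases IGF1R and INSR. The activated receptors phosphorylate the docking proteins IRS1 and IRS2, which recruit phosphatidylinositol 3-kinase (PI3K) and so turn on AKT and mTOR. Secreted IGF-binding proteins hold IGFs outside the cell and control how much ligand reaches the receptor, and in glioma cells they are also known for effects that do not need the ligand. The genes described here are 6 binding proteins (IGFBP2, IGFBP3, IGFBP4, IGFBP5, IGFBP6 and IGFBP7), the receptors IGF1R and INSR, and the substrates IRS1 and IRS2. They were chosen by name, with earlier results of these data known. All 10 were found by Ensembl identifier among the 60675 genes of the expected-count table, of which 19586 are protein-coding.

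RNA was sequenced from SW1783 cells, an established human astrocytoma line, after 24 h with a water extract of Schisandrae Fructus (WESF), an ethanol extract (EESF) or 0.1% DMSO as vehicle. Batch A held vehicle A and WESF at 20, 100 and 500 µg/mL, and batch B held vehicle B and EESF at 12.4, 62 and 310 µg/mL, here called the low, medium and high doses. Per the paper, a preliminary cytotoxicity screen found no toxicity at 500 µg/mL WESF, whereas 310 µg/mL EESF was at its IC20. Each of the 8 groups had 3 libraries, and the sources do not say whether these came from separate cultures, so p-values measure the spread between the libraries, which may be technical. All cells were of 1 line in the same serum-containing medium, and the 3 doses of an extract share its vehicle libraries. Totals ran from 18727797 to 32567395 expected counts per library, lowest in vehicle B (18727797 to 20465712) and highest in high-dose EESF (29659110 to 32567395).

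The vehicle libraries of the batches were compared first, because each extract was sequenced with its own vehicle. With edgeR's quasi-likelihood test, no gene of 13001 differed between vehicle B and vehicle A at an adjusted p below 0.05 and a fold change beyond 1.5 (0% called). DESeq2 also called 0 genes. In edgeR 371 genes (2.85%) had an unadjusted p below 0.05, a share smaller than the cut-off itself. All 10 members had an adjusted p of 1 in that edgeR comparison. With a block on the replicate number edgeR called 17 genes, and without the filter on low counts 1, of which 0 were members. Libraries with the same replicate number in the vehicles were nearer to each other than those with other numbers. The chi-square per degree of freedom between vehicle A and vehicle B counts was 3.11 to 3.42 for the same number and 4.07 to 9.94 for different numbers, against 2.86 to 7.04 within a vehicle. Whether the vehicles of the batches share cultures is not given in the labels and was not tested.

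The line was checked against markers of its labelled type. Of 11 astrocyte and glioma markers, 5 passed the filter on low counts, led by vimentin (VIM) with a mean of 4897 CPM (read counts scaled to a common library total) over all libraries. The water channel AQP4 and the stem-cell factor SOX2 were below 0.1 CPM in every library, and GFAP, the defining astrocyte filament, averaged 0.149 CPM in vehicle A and reached at most 10 reads in a high-dose library.

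In vehicle A the members covered a wide range of levels, given here as CPM per kilobase of the transcript so that genes can be compared. IGFBP7 stood at 1005 ± 79.0 (SD, n = 3), followed by IGFBP4 at 210.3 ± 5.36, IGFBP3 at 155.2 ± 1.74 and IGFBP6 at 76.9 ± 5.51. IRS1 came next at 10.5 ± 0.796, then IGFBP5 at 6.26 ± 0.159, IRS2 at 4.40 ± 0.447, IGF1R at 3.07 ± 0.174, INSR at 2.47 ± 0.104 and IGFBP2 at 0.527 ± 0.087. No neighbours in this order overlapped between libraries, in vehicle A or in vehicle B, where the order was the same. The abundant binding proteins were therefore IGFBP7, IGFBP4, IGFBP3 and IGFBP6, while IGFBP2, a binding protein known from high-grade glioma, had 10 to 24 reads in a vehicle library.

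**Figure D1:**
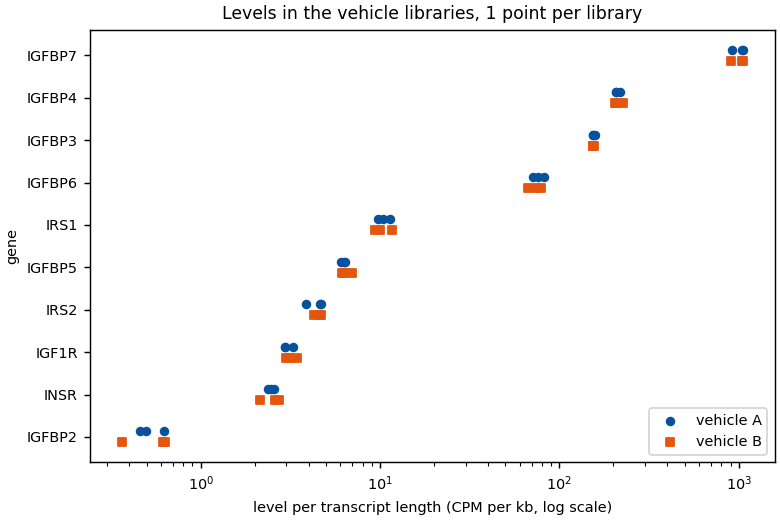
Level of each member in the vehicle libraries, in CPM per kilobase of transcript on a log axis, with 1 point per library (circles, vehicle A; squares, vehicle B). The vehicle A mean is 1005 for IGFBP7 and 0.527 for IGFBP2, and neighbouring genes do not overlap within a vehicle.

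IRS1 had the largest change of the members at both high doses. The gene IRS1 (ENSG00000169047, GRCh38 chr2:226731312-226799820, minus strand, 2 exons in its canonical transcript) encodes a docking protein first found as a target of the insulin receptor. Its level in vehicle A was 95.2, 101.9 and 110.7 CPM, and high-dose WESF left 49.3, 46.6 and 46.4 CPM. In vehicle B it was 91.2, 97.3 and 113.1 CPM, and after high-dose EESF 50.0, 43.1 and 43.0 CPM. The treated libraries lay below every vehicle library in both batches, with a wide gap and no overlap. Groups without overlap were common at these doses, in 71.5% of all genes tested with high-dose WESF and 62.9% with high-dose EESF.

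The log2 fold change of IRS1 was -1.11 ± 0.057 (SE) with high-dose WESF (edgeR adjusted p = 3.29e-11) and -1.15 ± 0.084 with high-dose EESF (edgeR adjusted p = 3.96e-07). At the medium doses IRS1 fell less, by 0.28 on the log2 scale with WESF (81.0 to 86.4 CPM; edgeR adjusted p = 0.0129) and by 0.34 with EESF (76.1 to 81.0 CPM; edgeR adjusted p = 0.00282). The medium-dose WESF call was lost without vehicle A replicate 2, WESF replicate 2 or WESF replicate 3, where the edgeR adjusted p reached 0.103. At the low doses the levels were 94.9 to 98.4 CPM with WESF and 84.8 to 89.8 CPM with EESF, and neither passed the test (edgeR adjusted p = 0.999 and 0.067). The low-dose EESF change passed in 4 alternatives, with DESeq2 (adjusted p = 0.0424), the replicate block (edgeR adjusted p = 0.0215), no filter on low counts and without vehicle B replicate 1 (edgeR adjusted p = 0.00214). In each batch the mean level was thus lower at each higher dose, although the differences between doses were not tested.

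IRS2 (ENSG00000185950, GRCh38 chr13:109752695-109786583, minus strand, 2 exons), the second widely expressed substrate, moved the other way with WESF. Vehicle A held 31.7, 37.9 and 38.1 CPM and high-dose WESF 54.8, 54.8 and 54.7 CPM. Every treated library was above every vehicle library, and the treated ones were almost equal. The log2 fold change was 0.61 ± 0.063 (edgeR adjusted p = 2.05e-07), just past the 1.5-fold threshold of 0.585. Without vehicle A replicate 1, the lowest of its group, it was 0.52 and below that threshold, with the adjusted p still at 1.73e-08.

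High-dose EESF gave 42.7, 41.8 and 38.7 CPM of IRS2 against 34.7, 37.5 and 38.3 CPM in vehicle B. The groups lay side by side without overlap, and the difference did not pass the test (log2 fold change 0.16 ± 0.064, edgeR adjusted p = 0.0541), although it passed without EESF replicate 3 (edgeR adjusted p = 0.0358) and in a fit of all 4 groups of the batch (edgeR adjusted p = 0.0388). The medium and low doses of both extracts kept IRS2 between 32.0 and 41.6 CPM, and none passed.

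Within a library, the ratio of IRS1 to IRS2 per transcript length does not depend on the scaling between libraries. It was 2.39 ± 0.134 (SD, n = 3) in vehicle A, 2.16 ± 0.021 with low-dose WESF, 1.95 ± 0.261 with medium-dose and 0.722 ± 0.024 with high-dose WESF. In batch B it was 2.27 ± 0.167 in the vehicle, 1.95 ± 0.046 with low-dose EESF, 1.75 ± 0.192 with medium-dose and 0.922 ± 0.060 with high-dose EESF. Per transcript length, IRS1 was the more abundant substrate in every library except those of the high doses, where IRS2 exceeded it. In CPM, IRS1 was still above IRS2 in each high-dose EESF library. The order there thus rests on the canonical transcript lengths (9771 and 8156 bases), and the transcripts used in these cells were not measured. Every dose of both extracts lay below its vehicle without overlap, with an exact two-sided permutation p of 0.1 for each, the smallest that 3 against 3 libraries allow.

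**Figure D2:**
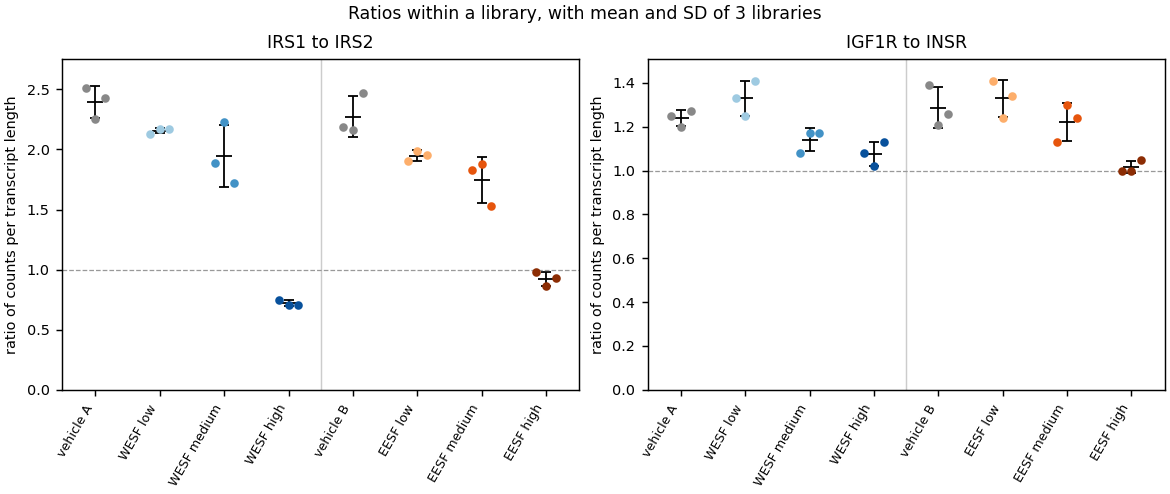
Ratio of IRS1 to IRS2 (left) and of IGF1R to INSR (right) in each library, as counts per transcript length, with the mean and SD of 3 libraries and a dashed line at 1. The IRS1 to IRS2 ratio lies above 1.5 in all groups but the high doses, which are below 1.

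The promoters of the substrates are shown because these genes moved in opposite directions with high-dose WESF. RefSeq (GRCh38.p14) gave a window for 9 of the 10 members, not for IGFBP7. The 250 bases upstream of the annotated start are chr2:226799821-226800070 for IRS1 and chr13:109786584-109786833 for IRS2, both read on the minus strand, with capitals marking matches to GGGCGG (a GC box) or CCAAT on either strand, where adjoining GC boxes share bases.
IRS1: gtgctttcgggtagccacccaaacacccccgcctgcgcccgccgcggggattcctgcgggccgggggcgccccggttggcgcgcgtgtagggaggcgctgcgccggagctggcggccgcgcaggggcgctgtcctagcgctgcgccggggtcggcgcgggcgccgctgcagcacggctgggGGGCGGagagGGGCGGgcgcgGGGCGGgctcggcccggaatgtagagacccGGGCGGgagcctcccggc
IRS2: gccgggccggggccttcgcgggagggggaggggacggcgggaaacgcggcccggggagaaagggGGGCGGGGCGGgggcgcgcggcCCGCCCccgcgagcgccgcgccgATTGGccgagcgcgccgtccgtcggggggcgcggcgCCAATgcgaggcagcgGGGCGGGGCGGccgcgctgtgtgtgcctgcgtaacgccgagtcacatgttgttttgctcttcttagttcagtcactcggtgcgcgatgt
IRS1 held 4 GC boxes and no CCAAT, and IRS2 held 5 GC boxes and 2 CCAAT. A GC box was present in 42.6% and CCAAT in 32.0% of 35116 windows of the same length. Both windows were rich in G and C (80.8% in IRS1 and 76.4% in IRS2, against a median of 58.0% over all windows). Searches for CACGTG (an E-box, in 6.34% of windows), TGTTTAC (a core recognised by FOXO factors, 2.98%), TATAAA (10.7%) and TGACTCA (an AP-1 site, 4.20%) found no match in either substrate. Among the other members, IGFBP6 held 1 TGTTTAC and IGFBP4 held 1 TATAAA. A match describes the letters only and says nothing of binding.

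IGF1R (ENSG00000140443, GRCh38 chr15:98648539-98964530, plus strand, 21 exons) is the main receptor for IGFs. Vehicle B held 36.5, 38.4 and 42.0 CPM of IGF1R, and high-dose EESF 28.7, 27.1 and 26.3 CPM. All treated libraries were below all vehicle libraries. The log2 fold change was -0.51 ± 0.068 (edgeR adjusted p = 4.76e-05), and at the medium dose it was -0.22 ± 0.068 (edgeR adjusted p = 0.0374), a call lost in 5 of 13 alternatives of test, scaling, filter or libraries, among them without vehicle B replicate 2 or 3 or EESF replicate 1 or 3 (edgeR adjusted p up to 0.168). With WESF IGF1R passed the test at no dose. The high dose held 35.9, 35.6 and 36.6 CPM against 36.3, 36.3 and 40.0 CPM in vehicle A, 1 vehicle library standing above the rest (log2 fold change -0.06 ± 0.055, edgeR adjusted p = 0.346).

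INSR (ENSG00000171105, GRCh38 chr19:7112255-7294414, minus strand, 22 exons), the insulin receptor, moved little. High-dose WESF held 25.6, 26.9 and 25.1 CPM and vehicle A 22.4, 23.4 and 24.4 CPM, a log2 fold change of 0.14 ± 0.059 that passed the test narrowly (edgeR adjusted p = 0.0405) and was lost in 8 of 13 alternatives, among them without any 1 library but vehicle A replicate 3 (edgeR adjusted p up to 0.124). With high-dose EESF it was 22.2, 21.0 and 19.4 CPM against 20.3, 24.6 and 25.8 CPM, where the groups overlapped and the test was not passed (log2 fold change -0.18 ± 0.090, edgeR adjusted p = 0.111). Without vehicle B replicate 1 that change was -0.28 and passed (edgeR adjusted p = 0.00953), and without vehicle B replicate 3 it was -0.11. With low-dose EESF the log2 fold change of INSR was -0.26 and did not pass (edgeR adjusted p = 0.0635). It passed in 3 alternatives, among them without vehicle B replicate 1 (-0.36, edgeR adjusted p = 0.0011). The ratio of IGF1R to INSR per transcript length went from 1.24 ± 0.035 to 1.08 ± 0.051 with high-dose WESF and from 1.28 ± 0.096 to 1.02 ± 0.029 with high-dose EESF (exact two-sided permutation p = 0.1 for each, as also for medium-dose WESF at 1.14 ± 0.054).

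Among the binding proteins, IGFBP3 rose at both high doses. IGFBP3 (ENSG00000146674, GRCh38 chr7:45912245-45921874, minus strand) is the main carrier of IGFs in blood. It stood at 404.9, 410.5 and 401.5 CPM in vehicle A and at 595.4, 595.0 and 601.5 CPM with high-dose WESF. In batch B it went from 402.3, 401.2 and 406.2 CPM to 512.7, 534.5 and 559.7 CPM with high-dose EESF. The libraries of each vehicle lay close together and below every treated one. The log2 fold changes were 0.56 ± 0.040 (edgeR adjusted p = 2.48e-09) and 0.41 ± 0.051 (edgeR adjusted p = 2.48e-05), the first of these just short of the 1.5-fold threshold. Medium-dose WESF gave 473.4, 429.0 and 476.0 CPM (log2 fold change 0.18 ± 0.045, edgeR adjusted p = 0.0414), lost in 6 of 13 alternatives, among them without vehicle A replicate 2 or 3 or WESF replicate 1 or 3 (edgeR adjusted p up to 0.217). No other dose passed.

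IGFBP4 (ENSG00000141753, GRCh38 chr17:40443450-40457725, plus strand) is a binding protein known mainly for inhibiting IGF action until the protease PAPPA cleaves it. Vehicle B held 497.9, 456.3 and 449.7 CPM. The low dose of EESF gave 533.0, 528.6 and 551.7 CPM, the medium dose 529.4, 543.1 and 600.9 CPM and the high dose 609.8, 585.1 and 613.3 CPM. All 9 treated libraries were above the vehicle, where 29.7%, 33.8% and 62.9% of all genes did not overlap at the low, medium and high doses. The log2 fold changes were 0.19 ± 0.043, 0.26 ± 0.056 and 0.37 ± 0.053 (edgeR adjusted p = 0.0144, 0.00659 and 8.42e-05). IGFBP4 was the only member that passed with low-dose EESF, a call lost without vehicle B replicate 2 or without any 1 of the low-dose libraries (edgeR adjusted p up to 0.0916), and the medium-dose call was lost without EESF replicate 3 (edgeR adjusted p = 0.0504). With WESF it rose at the high dose only, from 477.3, 457.4 and 456.3 CPM to 524.0, 498.5 and 526.1 CPM (log2 fold change 0.15 ± 0.043, edgeR adjusted p = 0.00413).

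IGFBP5, a binding protein held in the matrix, and IGFBP6, which prefers IGF2, passed the test at the high dose of WESF. IGFBP5 (ENSG00000115461, GRCh38 chr2:216672105-216695549, minus strand) was at 39.7, 37.9 and 39.5 CPM in vehicle A, 35.7, 32.9 and 33.0 CPM with medium-dose WESF and 50.9, 45.8 and 47.1 CPM with high-dose WESF. The medium dose lay below the vehicle and the high dose above it, without overlap (as in 24.5% and 71.5% of all genes tested). The high-dose log2 fold change was 0.30 ± 0.053 (edgeR adjusted p = 9.18e-05). The medium-dose one was -0.21 ± 0.052 (edgeR adjusted p = 0.0406) and was lost in 8 of 13 alternatives, among them DESeq2 and without replicate 2 or 3 of either group (adjusted p up to 0.195). IGFBP6 (ENSG00000167779, GRCh38 chr12:53097436-53102345, plus strand) went from 78.2, 72.4 and 67.8 CPM to 62.0, 60.6 and 62.0 CPM with high-dose WESF, all below the vehicle (log2 fold change -0.24 ± 0.052, edgeR adjusted p = 0.000509). With high-dose EESF the log2 fold changes were -0.02 ± 0.070 for IGFBP5 and -0.02 ± 0.074 for IGFBP6, neither passed, and the groups overlapped.

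IGFBP7 (ENSG00000163453, GRCh38 chr4:57030773-57110385, minus strand) is a matrix-associated relative that binds IGFs weakly. It was at 1509, 1482 and 1285 CPM in vehicle B, 1625, 1600 and 1675 CPM with medium-dose EESF and 1501, 1629 and 1675 CPM with high-dose EESF. The lowest high-dose library lay within the range of the vehicle. The log2 fold changes were 0.20 ± 0.058 and 0.17 ± 0.066 (edgeR adjusted p = 0.0283 and 0.0433), each lost in 6 of 13 alternatives, among them without vehicle B replicate 2 or 3, any medium-dose library, or high-dose replicate 2 or 3 (edgeR adjusted p up to 0.138 and 0.212). With high-dose WESF it was 1339, 1187 and 1450 CPM against 1517, 1480 and 1306 CPM in vehicle A, overlapping and not past the test (edgeR adjusted p = 0.135). That change was -0.18 and passed without vehicle A replicate 3 or WESF replicate 3 (edgeR adjusted p = 0.0212 and 0.0331), and it was -0.04 without WESF replicate 2.

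IGFBP2 (ENSG00000115457, GRCh38 chr2:216632828-216664436, plus strand) lies beside IGFBP5 on chromosome 2, 7668 bp apart and in the opposite orientation. Its level was 0.511 to 1.18 CPM in the vehicle and high-dose libraries. No dose passed the test, and at these read numbers the log2 fold change with high-dose WESF had an SE of 0.26 (0.45, edgeR adjusted p = 0.135). With such an SE, changes of this gene as small as that one were not detectable at this depth.

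**Figure D3:**
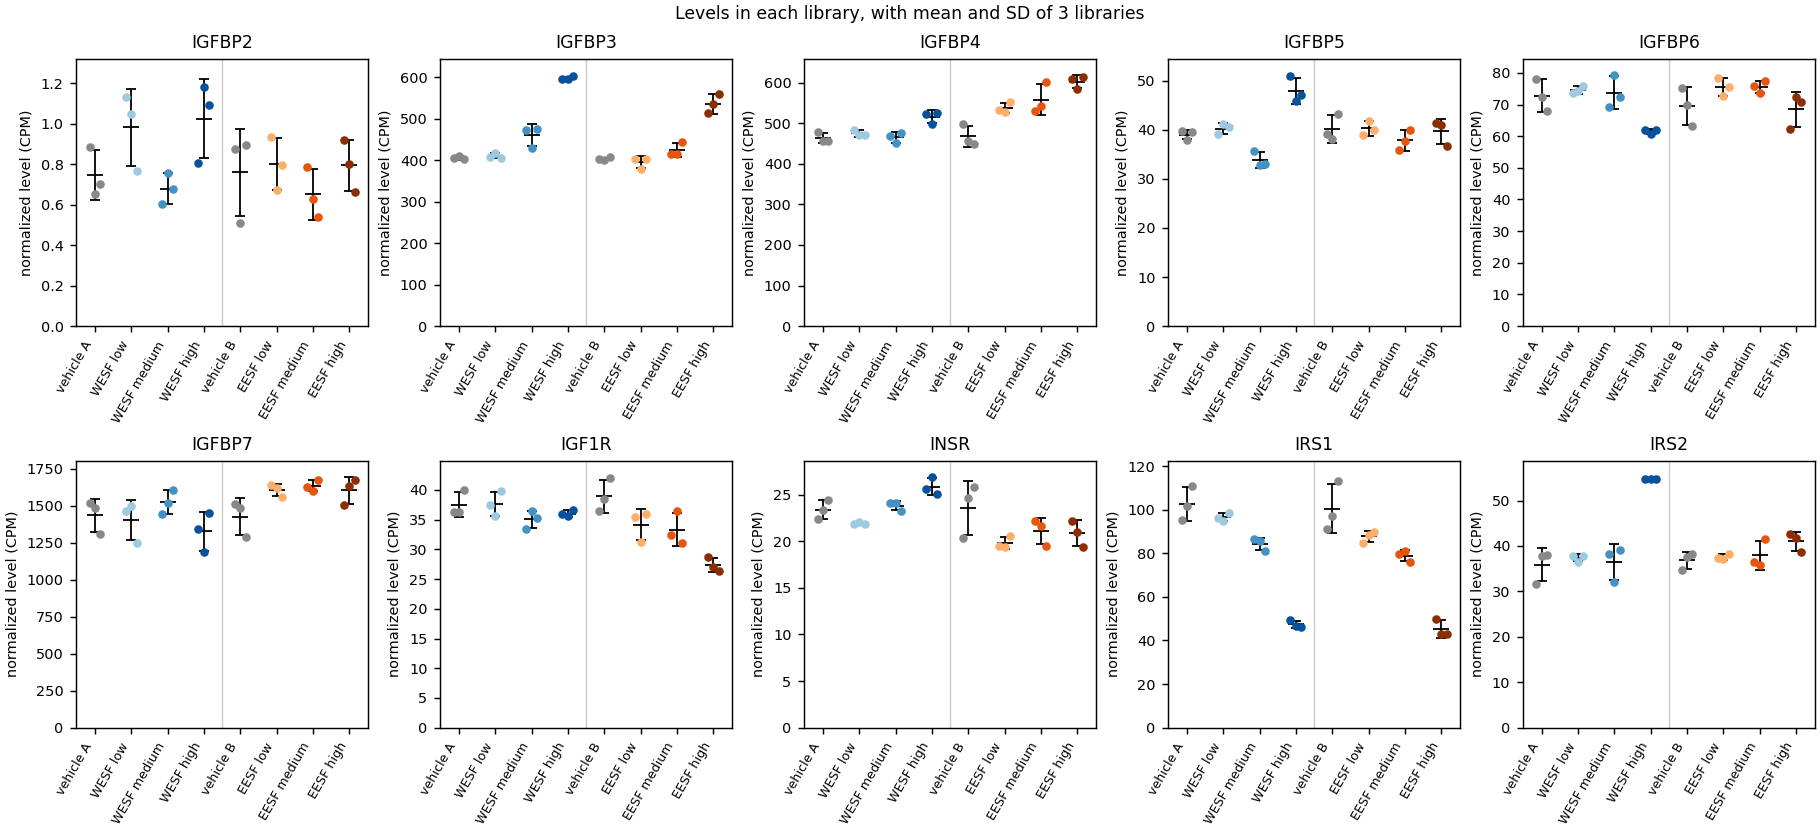
Normalized level (CPM, linear axes from 0) of each of the 10 members in every library, with the mean and SD of 3 libraries, batch A to the left of the grey line and batch B to its right. IRS1 falls to 43.0 to 50.0 CPM at both high doses, IRS2 reaches 54.7 to 54.8 CPM with high-dose WESF, and IGFBP3 rises at both high doses.

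The make-up of the transcripts of the 6 member binding proteins shifted with these changes. IGFBP1 is not a member and is left out of these shares. With high-dose WESF it had a log2 fold change of 0.53 ± 0.086 (SE, edgeR adjusted p = 3.76e-05). Per transcript length, IGFBP7 made 69.1% ± 1.3 (SD, n = 3) of the 6 binding proteins in vehicle A and 63.3% ± 1.96 with high-dose WESF, while IGFBP3 went from 10.7% ± 0.557 to 15.7% ± 1.03. With high-dose EESF the share of IGFBP7 was 66.8% ± 0.839 against 69.0% ± 1.39 in vehicle B, that of IGFBP3 12.2% ± 0.115 against 10.7% ± 0.794, and that of IGFBP4 16.3% ± 0.872 against 14.7% ± 0.656. The summed level of the 6 genes was 2416 ± 128 CPM in vehicle A, 2550 ± 151 CPM with high-dose WESF, 2407 ± 142 CPM in vehicle B and 2849 ± 115 CPM with high-dose EESF.

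Over the 10 members, high-dose WESF gave 2 past both thresholds, IRS2 up and IRS1 down, where 24.1% of the 13129 genes tested were called (11.1% up and 13% down). At an adjusted p below 0.05 alone, 5 members were up (IGFBP3, IGFBP4, IGFBP5, INSR and IRS2) and 2 down (IGFBP6 and IRS1), against 68.9% of all genes (34.3% up and 34.6% down). High-dose EESF gave 1 past both thresholds, IRS1, against 17.4% of 13092 genes (8.21% up and 9.17% down), and at the adjusted p alone 3 up (IGFBP3, IGFBP4 and IGFBP7) and 2 down (IGF1R and IRS1), against 58% of all genes (29.3% up and 28.7% down). The members were therefore called at about the rate of other genes at the high doses. The median log2 fold change of the members was 0.15 with high-dose WESF and 0.02 with high-dose EESF, beside 0 and 0.01 over all genes.

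No member passed both thresholds at a lower dose. For medium-dose WESF 0.275% of all genes did and for medium-dose EESF 0.755%, for low-dose EESF 0.271% and for low-dose WESF 0%. With low-dose WESF DESeq2 called 1 gene, and 470 genes (3.58%) had an unadjusted p below 0.05 in edgeR, a share smaller than that cut-off. At the adjusted p alone, 3 members passed with medium-dose WESF (4.1% of all genes), 4 with medium-dose EESF (15.4%), 1 with low-dose EESF (9.35%) and 0 with low-dose WESF (0%). With low-dose EESF, IRS1, INSR, IGF1R and IGFBP7 also passed with the replicate block (edgeR adjusted p = 0.0109 to 0.0426), without the filter on low counts and without vehicle B replicate 1, IRS1 and IGFBP7 in DESeq2, and IGFBP6 without vehicle B replicate 1. Without that library INSR and IGFBP6 also passed with medium-dose EESF (edgeR adjusted p = 0.0201 and 0.0271).

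**Figure D4:**
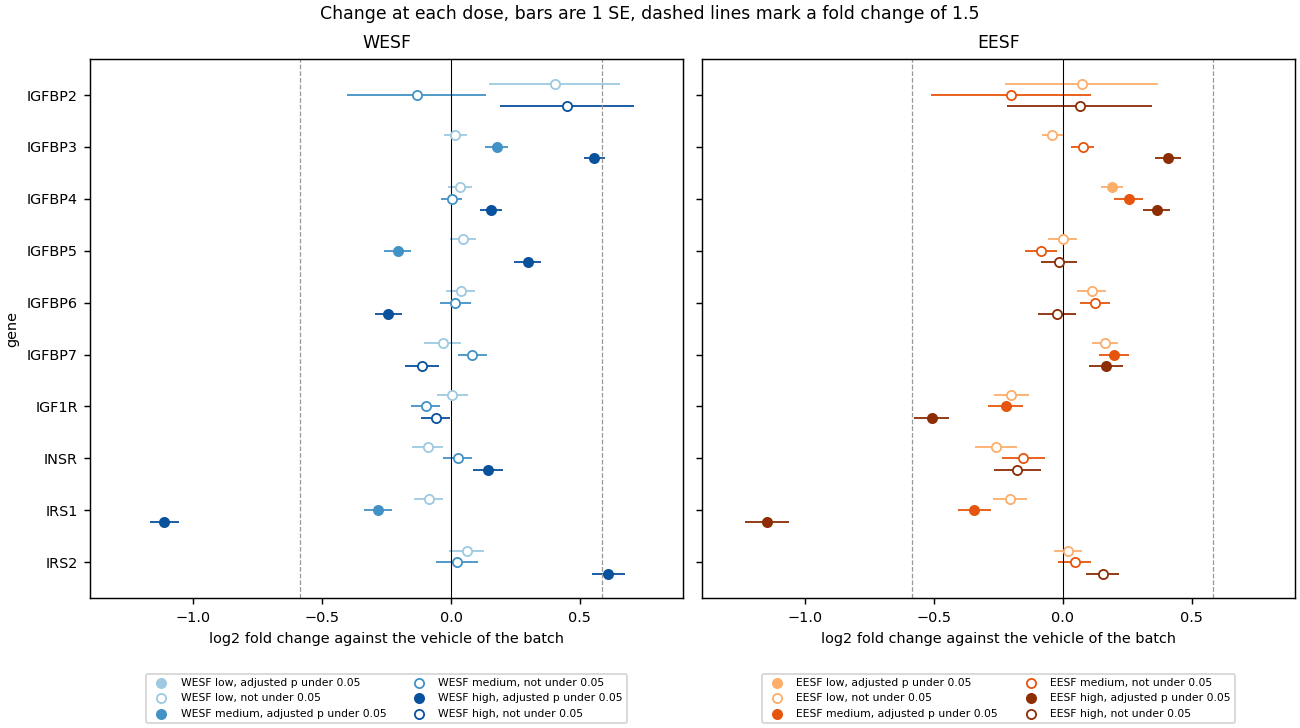
Log2 fold change of each member against the vehicle of its batch (points, with bars of 1 SE) for the 3 doses of WESF (left) and EESF (right). Filled points have an edgeR adjusted p below 0.05 and dashed lines mark a fold change of 1.5, which only IRS1 at both high doses and IRS2 with high-dose WESF passed.

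The extracts were then compared with each other by the difference between their high-dose changes, each against its own vehicle, although the doses differ (310 and 500 µg/mL) and extract and batch cannot be told apart. By the paper's screen the high dose of EESF was also partly cytotoxic and that of WESF was not. For IRS1 the difference, EESF minus WESF, was -0.03 ± 0.111 on the log2 scale (edgeR adjusted p = 0.856) and did not pass. With this SE a difference in IRS1 of similar size to the SE could not be detected. Past the test, 5 members differed (26% of 13376 genes), and 0 at both thresholds (3.88%). The change was lower with EESF by 0.45 ± 0.095 in IRS2 (edgeR adjusted p = 0.00301), by 0.44 ± 0.085 in IGF1R (edgeR adjusted p = 0.00172), by 0.31 ± 0.088 in IGFBP5 (edgeR adjusted p = 0.0166, and 0.0561 with the replicate block) and by 0.32 ± 0.11 in INSR (edgeR adjusted p = 0.0426). IGFBP4 went further up with EESF, by 0.21 ± 0.065 (edgeR adjusted p = 0.0235). IGFBP3 (-0.15), IGFBP6 (0.22), IGFBP7 (0.28) and IGFBP2 did not pass. Of 19 alternatives, IGFBP7 passed in 7, among them DESeq2 and a fit of all 8 groups (adjusted p down to 0.0262), IGFBP3 in 2, DESeq2 and without EESF replicate 3, and IGFBP6 in 2, without vehicle B replicate 1 or EESF replicate 1 (adjusted p down to 0.0229 for each). The difference in INSR was lost in 10 of 19 alternatives (edgeR adjusted p up to 0.117), 9 of them with 1 library left out. That in IGFBP4 was lost with the replicate block and without vehicle A replicate 1, WESF replicate 2, vehicle B replicate 2 or 3 or EESF replicate 3 (edgeR adjusted p up to 0.079).

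The genes around the members were described from 5 lists of 71 genes of the same pathway. At the high dose of WESF 59 of them were tested, of which 8 rose and 5 fell past both thresholds (22%), and with EESF 59 were tested, of which 6 rose and 9 fell (25.4%). Among all genes the shares were 24.1% and 17.4%, so that of the lists was near it with WESF and above it with EESF, a difference that was not tested. The lists were chosen with earlier results of these data known, so no enrichment can be read from their shares here or below. The median log2 fold changes of the lists were 0.06 and -0.03.

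Ligands were scarce. Insulin (INS) was below 0.1 CPM in every library, IGF1 had at most 4 reads in a vehicle or high-dose library, and IGF2 was at 0.412, 0.511 and 0.279 CPM in vehicle B and 0.530, 0.894 and 0.963 CPM with high-dose EESF, a few reads' difference without overlap (log2 fold change 0.98 ± 0.347, edgeR adjusted p = 0.0285). With high-dose WESF IGF2 did not pass the test (0.20 ± 0.298), and the difference between the extracts was itself not past the test. IGF2R, the receptor that clears IGF2 and the most abundant gene of its list, fell from 369.8, 393.3 and 405.4 CPM to 256.5, 254.2 and 244.0 CPM with WESF (log2 fold change -0.63 ± 0.046) and from 359.7, 386.3 and 392.1 CPM to 231.2, 223.8 and 201.7 CPM with EESF (-0.79 ± 0.062). Every treated library was well below its vehicle.

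Of 6 proteases of binding proteins and their inhibitors, PAPPA and STC1 passed both thresholds with WESF (24.1% of all genes did). With EESF 0 passed both (17.4% of all genes did). PAPPA, which cleaves IGFBP4, went from 60.7, 75.3 and 78.1 CPM to 165.5, 154.4 and 152.8 CPM with high-dose WESF (log2 fold change 1.14 ± 0.072, edgeR adjusted p = 4.12e-10) and from 62.7, 72.8 and 74.7 CPM to 106.3, 99.4 and 85.7 CPM with EESF (0.47 ± 0.084, edgeR adjusted p = 0.000446). STC1, an inhibitor of PAPPA, rose by 0.59 ± 0.049 and 0.23 ± 0.053. Both were higher in all 6 high-dose libraries than in their vehicle, whereas STC1 fell by 0.21 on the log2 scale with medium-dose WESF (edgeR adjusted p = 0.0178) and PAPPA by 0.26 with low-dose EESF (edgeR adjusted p = 0.0248). At the lower doses neither gene passed otherwise. HTRA1, the most abundant of the list, did not pass with either extract (-0.01 ± 0.045 and -0.03 ± 0.051).

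Downstream of the substrates, 22 of 23 adaptors and members of the PI3K, AKT and mTOR chain were tested. Of the PI3K regulatory subunits, PIK3R1 fell by 0.67 with WESF and 0.78 with EESF on the log2 scale and PIK3R3 by 0.51 and 1.19. PIK3R2 had a log2 fold change of -0.07 with WESF that did not pass the test (edgeR adjusted p = 0.173), and it rose by 0.14 with EESF (edgeR adjusted p = 0.042). EIF4EBP1, the translational repressor that mTOR inactivates and the most abundant of the list, rose by 0.77 ± 0.052 and 0.78 ± 0.082. With WESF 1 gene of this list rose and 1 fell past both thresholds (11.1% and 13% of all genes). With EESF 1 rose and 2 fell (8.21% and 9.17%). At the adjusted p alone 13 rose and 4 fell with WESF (34.3% and 34.6% of all genes). With EESF 6 rose and 5 fell (29.3% and 28.7%). The departure of the list from these shares was not tested.

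Among 16 inhibitors of the pathway, DDIT4 and TRIB3 had the highest fold changes. DDIT4, which restrains mTOR under stress, went from 68.9, 61.4 and 66.0 CPM to 234.6, 253.8 and 250.5 CPM with high-dose WESF (log2 fold change 1.91 ± 0.051) and from 68.4, 58.8 and 62.7 CPM to 121.9, 131.4 and 130.9 CPM with EESF (1.02 ± 0.063). TRIB3, an AKT-binding pseudokinase, rose by 1.84 ± 0.051 and 1.42 ± 0.056. SOCS2, a suppressor of cytokine and growth hormone signalling, rose by 0.68 ± 0.141 and 0.84 ± 0.144 from 2.37 to 3.61 CPM in the vehicles, and PIK3IP1, an inhibitor of PI3K, passed with EESF (-0.66 ± 0.213) and not with WESF (-0.55 ± 0.258), the difference itself not past the test. All 16 were tested, of which 3 rose past both thresholds with each extract and 1 fell with EESF. Among all genes 11.1% rose with WESF, and 8.21% rose and 9.17% fell with EESF. At the adjusted p alone 4 rose and 5 fell with WESF (68.9% of all genes passed). With EESF 4 rose and 6 fell (58% of all genes passed). The departure of the list from these shares was not tested.

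FOXO1, the transcription factor that AKT excludes from the nucleus, fell from 15.0, 15.3 and 17.0 CPM to 7.54, 6.01 and 7.05 CPM with high-dose WESF (log2 fold change -1.19 ± 0.092) and from 14.9, 15.8 and 15.7 CPM to 7.92, 7.09 and 7.41 CPM with EESF (-1.05 ± 0.080). Genes known as FOXO targets did not move in 1 direction. FBXO32, a ubiquitin ligase of muscle wasting, fell by 1.3 and 0.95, and CITED2, the most abundant of the list, fell by 0.70 and 0.75. GADD45A, a stress-response gene, rose by 0.78 and 0.77, and CCNG2 rose by 0.95 and 0.19, while the apoptosis gene BCL2L11 fell by 0.24 and 0.86. SESN3 fell with EESF (-0.61 ± 0.108) and did not pass with WESF (-0.05 ± 0.102). Of the 18 genes of this list 12 were tested, of which 2 rose and 3 fell past both thresholds with WESF (11.1% and 13% of all genes). With EESF 1 rose and 5 fell (8.21% and 9.17%). At the adjusted p alone 4 rose and 6 fell with WESF (34.3% and 34.6% of all genes). With EESF 2 rose and 8 fell (29.3% and 28.7%). The departure of the list from these shares was not tested.

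**Figure D5:**
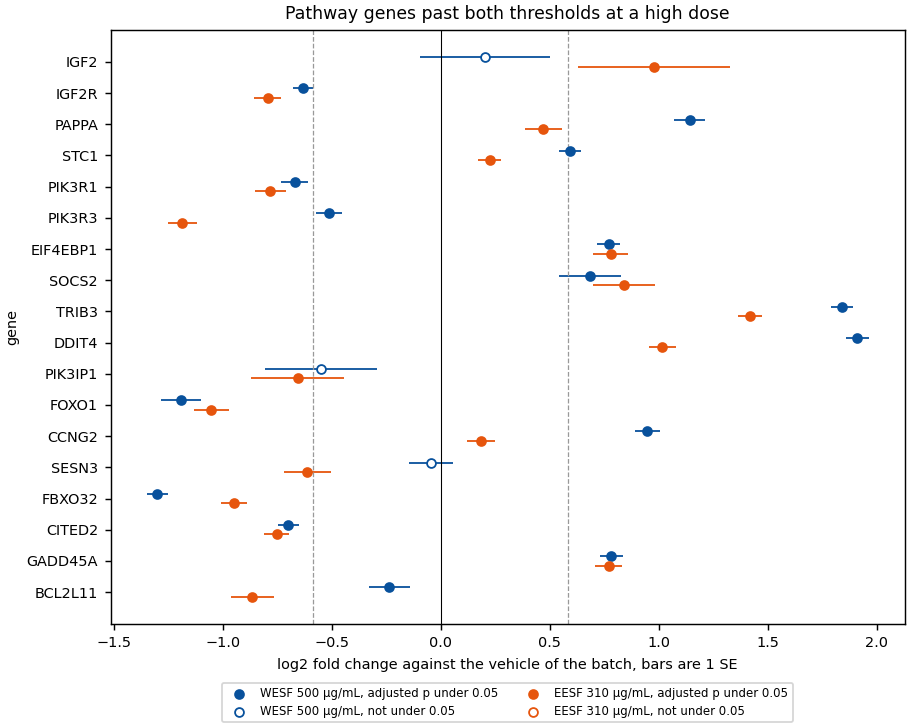
Log2 fold change, with bars of 1 SE, of the 18 pathway genes past both thresholds at the high dose of either extract (blue, WESF 500 µg/mL; orange, EESF 310 µg/mL; filled, edgeR adjusted p below 0.05). DDIT4 and TRIB3 lie farthest to the right and FBXO32, FOXO1 and PIK3R3 farthest to the left.

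IRS1 was the only member called at both high doses, and the genes whose pattern was most like it were found by Pearson's r over the 24 libraries, of log2 levels relative to the vehicle of the batch, among 9548 genes. Among them were PIEZO2 (r = 0.994), a mechanically gated channel, and PCDH9 (r = 0.994), a protocadherin. PIEZO2 went from a mean of 34.5 CPM in vehicle A to 11.0 CPM with high-dose WESF and PCDH9 from 33.7 to 13.9 CPM, and with high-dose EESF they reached 11.8 and 14.4 CPM. The libraries are grouped by dose and the r values describe that shared dose order only.

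Some other measures moved with the high doses. The markers of other cell types with WESF and the mitochondrial share with EESF overlapped their vehicle. The summed level of the 11 astrocyte and glioma markers was 7697 to 7841 CPM in vehicle A and 6485 to 6727 CPM with high-dose WESF, and 7834 to 8009 CPM in vehicle B and 7268 to 7514 CPM with high-dose EESF. VIM, with a mean of 4897 CPM over all libraries, made most of these sums. Of the 11 markers, 5 were tested, of which 4 fell past both thresholds with WESF and 2 with EESF, and 0 rose. Among all genes 13% fell with WESF and 9.17% with EESF (11.1% and 8.21% rose). The departure of the list from these shares was not tested. The glutamate transporter SLC1A3 fell by 1.62 and 1.39 on the log2 scale. The 12 markers of other cell types summed to 262.8 to 273.8 CPM in vehicle A and 261.7 to 293.4 CPM with high-dose WESF, and 278.0 to 300.9 CPM in vehicle B and 321.6 to 331.1 CPM with high-dose EESF, most of it CD68, while MOG and CDH1 were below 0.1 CPM in every library. Of the 12, 8 were tested with WESF (2 up and 4 down past both thresholds, where 24.1% of all genes were called). With EESF 7 were tested (0 up and 3 down, where 17.4% of all genes were called). Mitochondrially encoded genes took 7.79% to 9.60% of counts with high-dose WESF against 10.3% to 10.6% in vehicle A, and 11.2% to 12% with high-dose EESF against 11.6% to 11.9% in vehicle B. The part of these shifts in the members' changes was not tested, and in bulk RNA fewer cells of a type and less RNA per cell cannot be told apart.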

How the data were processed

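The authors deposited expected counts per gene, estimated with RSEM 1.3.3 after trimming (Trim Galore 0.6.6), read quality checks (FastQC 0.11.9) and alignment with STAR 2.7.9a, per the labels. The genome was GRCh38 (hg38) and the RSEM strand setting is not given in the sources used here. RSEM shares reads between genes by estimation, and 10.9% of values were not whole, so they were rounded. Identifiers were named with GENCODE release 44, which held 56558 of the 60675 genes.

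Protein-coding genes passing edgeR's filterByExpr were tested with edgeR 4.0.16 (TMM scaling, quasi-likelihood test, R 4.3.3), each dose against the vehicle of its batch, with Benjamini-Hochberg adjustment over all genes tested. Called means an adjusted p below 0.05 and a fold change beyond 1.5. Levels are CPM on TMM-scaled totals, and levels per kilobase use the canonical transcript. The fitting code was tested on simulated data. The members were named in full, and of 5 pathway lists the genes called at either high dose and the most abundant gene of each list. The members and lists were chosen with earlier results of these data known. SOD2 of the FOXO list was not matched by identifier. One of the genes most like IRS1 in pattern is not reported here. Alternatives were DESeq2 1.42.0, its size factors, no filter, all genes, thinning to the smallest total, a joint fit, the replicate block and leaving out each library. Replicates differed by more than counting noise (chi-square per degree of freedom 2.05 to 14.1).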

Additional observations from a re-analysis of the deposited data

Results flagged for a closer look

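These results were picked because a change at the high dose differed between the extracts in a test of the difference itself (change with EESF minus change with WESF, log2 scale, edgeR, each extract against its own vehicle, 3 libraries per group). Extract, dose (310 against 500 µg/mL) and batch cannot be told apart in them. Named here are members and pathway genes called at either high dose. Of all 59 pathway genes tested, the change with EESF was higher in 4 and lower in 21 past the test. Among all genes 26% passed this test, 12.7% with a higher and 13.3% with a lower change with EESF. The departure of the lists from these shares was not tested. Among the members the difference was -0.45 in IRS2, -0.44 in IGF1R, -0.32 in INSR, -0.31 in IGFBP5 and 0.21 in IGFBP4. The last 3 of these did not pass with the replicate block (edgeR adjusted p = 0.11, 0.0561 and 0.0589). Among the proteases of binding proteins and their inhibitors it was -0.67 in PAPPA and -0.37 in STC1. PIK3R3, a regulatory subunit of PI3K, differed by -0.67. Of the inhibitors of the pathway, DDIT4 differed by -0.89 and TRIB3 by -0.42. Of FOXO targets, CCNG2 differed by -0.76, BCL2L11 by -0.63, SESN3 by -0.57 and FBXO32 by 0.35. The groups of 3 libraries were too small for a test of single outlying libraries.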

How the results depend on the processing

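Over 80 comparisons of a member, 25 had an adjusted p below 0.05, of which 13 kept it under every alternative and 12 lost it under some, 13 others passed under some, and 0 changed direction among calls. IRS1 at both high doses and IGFBP3, IGFBP4, IGFBP5, IGFBP6 and IRS2 with high-dose WESF were among those kept. The number of members past both thresholds was 1 to 2 for high-dose WESF with 1 library left out, and stayed at the reported number in every other alternative run. Counts of genes called were less stable at the lower doses. DESeq2's Wald test called 23 with medium-dose WESF (36 in edgeR), 1 with low-dose WESF (0), 33 with medium-dose EESF (98) and 8 with low-dose EESF (35). Without the filter 3 genes were called with low-dose WESF, 64 with low-dose EESF and 1 between the vehicles, and testing every gene instead of protein-coding genes gave 73 with low-dose EESF. Leaving out 1 library gave 3118 to 3186 with high-dose WESF, 9 to 61 with medium-dose and 0 to 1 with low-dose WESF, 2133 to 2453 with high-dose EESF, 50 to 164 with medium-dose and 11 to 91 with low-dose EESF, 385 to 729 for the difference between the extracts and 0 to 2 between the vehicles. The cause was not tested.

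The replicate numbers share only a number in the labels. Same-numbered libraries correlated at -0.08 to 0.13 in their deviations from the group means, and 9 of 21 libraries correlated best with their own number. With the replicate block, 3156 genes were called with high-dose WESF, 2228 with high-dose EESF and 437 for the difference, and 17 between the vehicles, where no gene was called without it. The differences between the extracts in INSR, IGFBP5 and IGFBP4 had edgeR adjusted p of 0.11, 0.0561 and 0.0589 with the block. With CPM on totals without TMM scaling, 22 of 80 group levels of the members moved by more than 1 SD, by a factor of 0.955 to 0.992. Depth limits IGFBP2 and the ligands, with few reads per library.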

Other observations

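Genes marking other cell types were measurable in these cultures of 1 line. PTPRC, which encodes the leukocyte antigen CD45, averaged 10.2 ± 0.621 CPM (SD, n = 3) in vehicle A and 2.12 ± 0.180 CPM with high-dose WESF, and 9.81 ± 0.823 CPM in vehicle B and 1.88 ± 0.342 CPM with high-dose EESF. MBP, a myelin gene, went from 6.80 to 12.6 CPM with high-dose WESF and from 6.59 to 9.66 CPM with high-dose EESF. Of the genes of neurons, SNAP25 fell by 1.67 on the log2 scale with high-dose WESF and by 1.1 with high-dose EESF, and SYT1 by 0.91 and 1.18, all past both thresholds in edgeR. RBFOX3, another such gene, had 2 to 4 reads in the vehicle A libraries and 12 to 18 with high-dose WESF. CD68 of the same list rose by 0.295 with high-dose WESF (edgeR adjusted p = 7.61e-05), short of the 1.5-fold threshold. PECAM1 had log2 fold changes of -0.76 and -1.05 with high- and medium-dose WESF (edgeR adjusted p = 0.0418 and 0.0458). At the adjusted p alone 4 of the 8 tested rose and 4 fell with high-dose WESF. With high-dose EESF 3 of 7 rose and 3 fell.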
